A study of Mus musculus with 12 samples.

Results

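The gastrocnemius, a calf muscle made mostly of fast-twitch fibres, was set against the hypothalamus, the brain region that releases hormones and governs feeding, in healthy mice. The members are the 6 RNA-seq libraries of control mice, out of 12 libraries in the series. They come from 3 male BALB/c mice labelled as 7 weeks old that received no tumor injection, and each mouse gave 1 gastrocnemius and 1 hypothalamus library. The other 6 libraries come from mice injected with CT-26 colon carcinoma cells and were not used. The protocol gives 7 weeks as the age at tumour injection and day 25 after injection as the end point of the tumour-bearing mice. The end point of the control mice is not given in the sources used here. The comparison describes what each tissue makes in these mice.

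Skeletal muscle fibres are filled with sarcomeres, the repeating units in which myosin thick filaments pull on actin thin filaments. Calcium released from the sarcoplasmic reticulum switches the filaments on, and creatine phosphate, glycogen and mitochondria pay for the work. The hypothalamus is a mosaic of small nuclei whose neurons make different peptide hormones, packed into dense core granules and released into blood or onto other neurons. Many enzymes and structural proteins used by both tissues are encoded by small gene families, the paralogues, in which one copy serves muscle and another serves neurons or most other cells.

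Each library held 27505574 to 34439915 expected counts, the reads per gene as estimated by the authors. Levels are given as rescaled TPM, the authors' TPM, which is per transcript length, recomputed over 45667 nuclear genes whose effective length averaged at least 100 nucleotides. This scale was needed because Bc1, a brain noncoding RNA with an effective length of 1.93 to 4.58 nucleotides in hypothalamus, took 24.8 to 26.6% of the deposited TPM there from 12162 to 33015 expected counts. Among the 10 highest genes by deposited TPM, the other names were mitochondrial genes or nuclear copies of mitochondrial DNA in hypothalamus, and in gastrocnemius the same kinds of gene with Acta1 and Ckm. Reads in those mitochondrial genes and copies came to 21.1 to 31.3% of all counts in gastrocnemius and 12.2 to 13.1% in hypothalamus, and the files cannot tell a mitochondrial gene from its copy. The tissue markers matched the labels. Acta1, Ckm, Myh4 and Tnnt3 stood at 12617 TPM or more in every gastrocnemius library and at 17.15 or less in every hypothalamus library. Snap25, Avp, Oxt and Pmch stood at 1245 or more in every hypothalamus library and at or under 1.05 in every gastrocnemius library. In whole tissue, fewer cells of a type and less RNA per cell cannot be told apart.

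The 2 tissues differed in most of their genes. Of 17807 genes tested, 15103 (84.8%) differed at an adjusted p under 0.05 in edgeR's quasi-likelihood test with the mouse as block. Of these, 6799 (38.2% of those tested) were higher in gastrocnemius and 8304 (46.6%) in hypothalamus. Large differences were more often towards hypothalamus: 2236 genes (12.6%) were called at least 32-fold higher there, and 589 (3.31%) in gastrocnemius. In 87.9% of the genes tested the 3 libraries of each tissue did not overlap. A gene was detected, at 1 TPM or more in all 3 libraries, for 11494 genes in gastrocnemius and 15726 in hypothalamus, of which 10820 were shared. The hypothalamus had 4043 genes at that level that were under 1 TPM in every gastrocnemius library, against 486 the other way. The cutoff is a share of the library, so these counts also depend on the scaling. The median log2 difference, gastrocnemius over hypothalamus, was -1.47 on rescaled TPM and -0.24 on the scale used for the calls.

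The direction of many small differences rests on the scaling. The TMM method sets the typical gene near no change, and scaling by library totals instead moved the differences towards hypothalamus, by a median of 1.37 on the log2 scale (2.58-fold). Genes with few counts in one tissue moved less, and the smallest change in a log2 difference was -0.49. With totals 2898 genes (16.3%) were higher in gastrocnemius and 13071 (73.4%) in hypothalamus. All 8304 genes called higher in hypothalamus with TMM were called so with totals, whereas of the 6799 called higher in gastrocnemius 2898 kept the call, 1667 lost it and 2234 were called higher in hypothalamus. Fold changes given here are on the TMM scale, as log2 of gastrocnemius over hypothalamus. Levels in TPM are shares of a library, so a gene can have a lower TPM in gastrocnemius and a positive TMM difference.

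The gastrocnemius put its nuclear mRNA into very few genes. In mice 1, 2 and 3 it took 56, 35 and 65 genes to reach 50% of the rescaled TPM in gastrocnemius, and 893, 854 and 839 genes in hypothalamus. The 10 most abundant genes held 32.1, 35.6 and 30.2% in gastrocnemius and 3.82, 3.95 and 3.95% in hypothalamus. The tissues did not overlap in either measure. With 3 libraries against 3 an exact permutation test cannot give a two-sided p under 0.10, so none was run. On deposited TPM, which Bc1 and the mitochondrial genes fill, 13 to 16 genes held 50% in gastrocnemius and 16 to 21 in hypothalamus, and the 10 highest held 40.0 to 44.5% and 44.2 to 46.2%. Expected counts, which give long genes more weight, again separated the tissues, at 27 to 37 genes in gastrocnemius and 921 to 943 in hypothalamus.

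**Figure D1:**
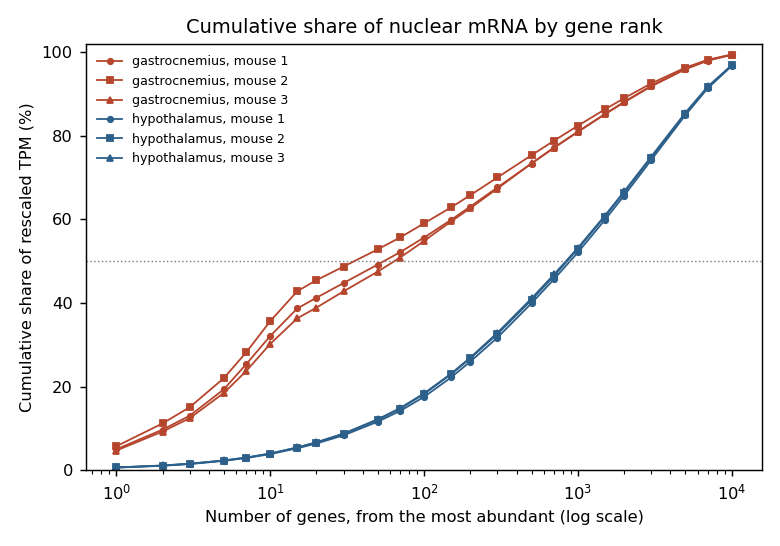
Cumulative share of rescaled TPM (%) held by the most abundant genes, ranked within each library (log scale), with 1 line per library and the dotted line at 50%. The 3 gastrocnemius curves cross it between 35 and 65 genes, and the 3 hypothalamus curves between 839 and 893.

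The 10 most abundant nuclear transcripts of the gastrocnemius were Acta1, Ckm, Myl1, Tnnc2, Tnnt3, Tpm1, Aldoa, Gapdh, Mylpf and Tnni2. Of these, 7 encode proteins of the thick and thin filaments, Ckm encodes muscle creatine kinase, and Aldoa and Gapdh are glycolytic. Acta1, skeletal muscle actin, averaged 50467 TPM ± 4060 (SD, n = 3) and Ckm 49924 ± 6191. In hypothalamus the highest were Gapdh at 6207 ± 222, an identifier that the annotation used does not name, Gnas, Apoe, Eef1a1, Fth1, Ubb, Rps27, Hspa8 and Rps24. Gnas, which encodes the stimulatory G protein alpha subunit, stood at 4374, 4201 and 4350 TPM, and Apoe, the lipid carrier secreted by astrocytes, at 3707, 4033 and 3833. None of those named hypothalamic transcripts is a neuronal hormone or a synaptic protein, and Gapdh was the only gene among the 10 highest of both tissues.

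The contractile filaments were the main product of the muscle. All 18 listed thick filament genes and all 16 thin filament genes were higher in gastrocnemius, against 38.2% of all genes, with median log2 differences of 12.25 and 11.53 beside -0.24 for all genes tested. Thick filament genes summed to 76710, 87316 and 69901 TPM in gastrocnemius and to 59.8 to 64.5 in hypothalamus. Thin filament genes summed to 172512, 185734 and 165727, and to 305 to 310. The fast myosin heavy chain Myh4 stood at 14997, 17295 and 12617 TPM in mice 1, 2 and 3, and its hypothalamic values were 2.58, 2.10 and 3.21. Its log2 difference was 14.11 (SE 0.40, adjusted p = 1.8e-08). The essential light chain Myl1 stood at 31950, 38684 and 29580 TPM and at 3.74, 2.67 and 6.15 in hypothalamus. The calcium sensor of fast fibres, troponin C gene Tnnc2, stood at 33111, 34305 and 30794 TPM against 4.35, 3.58 and 7.77. No hypothalamic library came near a muscle library for any of the 3 genes.

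Fast-fibre isoforms outweighed slow ones in every muscle. Myh4 held 91.6, 93.6 and 82.9% of the myosin II heavy chain TPM in mice 1, 2 and 3, and Myh7, the slow heavy chain, 0.997, 0.640 and 1.58%. The fast troponins Tnnc2, Tnni2 and Tnnt3 held 99.4, 99.7 and 99.1% of their families on average. In hypothalamus the heavy chain family summed to 255 TPM, and the nonmuscle gene Myh10 led it with 54.4%. Myh7 was nevertheless at 44.7, 42.5 and 38.3 TPM in hypothalamus and Myh6, its near-identical neighbour on chromosome 14, at 29.4, 22.9 and 21.1, far above Myh4 there. Reads of these 2 genes can be split between them by the counting, so each value is uncertain.

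Z-disc and desmin genes anchor the thin filaments, and all 18 were higher in gastrocnemius (median log2 difference 10.70). The titin-cap gene Tcap stood at 4362, 4017 and 5325 TPM against 1.25, 1.25 and 1.98 in hypothalamus, and desmin, Des, at 2054, 1834 and 2015 against 1.77, 1.70 and 2.00. Of 28 genes of excitation-contraction coupling, which links the action potential to calcium release, 26 were higher in gastrocnemius and 2 were not called. The fast calcium pump Atp2a1 stood at 19742 TPM on average, the calcium store protein Casq1 at 4864 and the fast-fibre calcium buffer parvalbumin, Pvalb, at 20471. Pvalb was also measurable in hypothalamus, where it marks a class of neurons, at 11.5, 39.5 and 40.7 TPM. Of 16 dystrophin complex genes, which tie the cytoskeleton to the matrix, 15 were higher in gastrocnemius with TMM and 12 with library totals. Beside the lists of this paragraph, 38.2% of all genes tested were called higher in gastrocnemius with TMM and 16.3% with totals. Sgca, alpha-sarcoglycan, led the dystrophin complex genes at 337, 422 and 358 TPM against 0.486 to 1.90.

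The neuromuscular junction list shows where muscle and brain share synaptic genes. Of 11 tested, 9 were higher in gastrocnemius and 2 in hypothalamus with TMM, beside 38.2 and 46.6% of all genes, and 7 and 4 with library totals. Ache, acetylcholinesterase, was the clearest of those in hypothalamus, at 257, 286 and 272 TPM against 19.9, 22.7 and 19.2 in gastrocnemius (log2 difference -2.20, SE 0.08, adjusted p = 7.0e-08). Utrn, utrophin, differed by -0.46. The list's summed TPM was lower in gastrocnemius, at 126 to 155, than in hypothalamus, at 299 to 338, although most members had the opposite direction.

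Extreme genes were sought among called genes with a mean deposited TPM of at least 20 in the higher tissue and no overlap between tissues. Predicted gene models, unnamed identifiers, pseudogenes and immune receptor segments were left out. Ranks follow the TMM log2 difference, which rests on no observed low level where a tissue had no count. The 12 most extreme towards gastrocnemius were Lbx1, Ampd1, Kcna7, Myl1, Ckmt2, Trdn, Ckm, Tnnc2, Tnni2, Myh4, Tnnt3 and Myoz1. Ampd1, muscle AMP deaminase, stood at 895, 985 and 775 TPM against 0.208, 0.121 and 0.160. Lbx1, a homeobox gene of migrating limb muscle precursors, and Kcna7, a potassium channel gene, had no count in any hypothalamus library. By library totals Lbx1 was at least 2151-fold higher and Kcna7 at least 1869-fold higher, taking 3 counts over the group as the floor. The 12 most extreme towards hypothalamus were Ralyl, Lmo3, Bex4, Slc32a1, Rit2, Ina, Nap1l2, Chga, Dock3, Sncb, Resp18 and Myt1l. Ralyl, Lmo3 and Bex4 had no count in gastrocnemius, and were at least 2503-fold, 2123-fold and 891-fold higher in hypothalamus by the same floor. Slc32a1, the vesicular GABA transporter, stood at 142, 111 and 131 TPM against 1 count in all 3 muscles together. Chga, chromogranin A of the dense core granules, stood at 293, 309 and 286 TPM against 2 counts.

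Abundant genes of one tissue differed widely in how much of them was read in the other. Of 18 genes called higher in gastrocnemius with a mean of at least 5000 TPM there, 11 stood in hypothalamus at under 0.1% of their muscle level, between 0.0125% for Myl1 and 0.0765% for Pgam2. The other 7 stood at 0.149 to 24.6%. Of 156 genes called higher in hypothalamus with at least 500 TPM there, 38 stood in gastrocnemius at under 0.1%. Whether such few reads were made by the tissue that carries them was not tested.

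Energy genes were split between the tissues gene by gene. Beside them, 38.2% of all genes tested were called higher in gastrocnemius and 46.6% in hypothalamus. Of 34 glycolysis and glycogen genes, 24 were higher in gastrocnemius and 8 in hypothalamus, with a median log2 difference of 3.86, and they summed to 81593 to 89128 TPM in gastrocnemius and 16778 to 17722 in hypothalamus. Aldoa, aldolase A, stood at 29408, 28517 and 26869 TPM against 2211, 2338 and 2407, and Pygm, muscle glycogen phosphorylase, at 5861, 6843 and 5773 against 34.4, 46.5 and 36.7. The strongest in the other direction were Aldoc, aldolase C of astrocytes, at 1081, 1122 and 1099 TPM in hypothalamus against 0.765, 1.23 and 0.389, and Eno2, neuronal enolase, at 989, 971 and 993 against 1.46, 0.842 and 1.34. Of 12 phosphocreatine and adenine nucleotide genes, 7 were higher in gastrocnemius and 5 in hypothalamus. The mitochondrial creatine kinases were split cleanly: Ckmt2 stood at 854, 761 and 1704 TPM in gastrocnemius and at or under 0.202 in hypothalamus, while Ckmt1 stood at 426, 416 and 454 in hypothalamus and at or under 1.88 in gastrocnemius.

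The listed mitochondrial protein genes were higher in muscle almost without exception. Outside the lists, the mitochondrial ribosomal RNA gene mt-Rnr1 was not called (log2 difference 0.34). It averaged 4228 deposited TPM in gastrocnemius and 9589 in hypothalamus. All 13 mitochondrially encoded protein genes and 53 of 55 nuclear genes of oxidative phosphorylation were higher in gastrocnemius, with median log2 differences of 2.496 and 2.698, and the counts were the same with library totals. The 2 exceptions were Cox6a1 and Cox8a, the widely expressed forms of cytochrome oxidase subunits that have a muscle form. The ATP synthase gene Atp5b stood at 4739, 4766 and 5445 TPM against 1904, 2436 and 2393. Of 26 fatty acid oxidation genes, 24 were higher in gastrocnemius and 1, Cpt1c, in hypothalamus. Beside the lists of this paragraph, 38.2% of all genes tested were called higher in gastrocnemius with TMM and 16.3% with library totals. The fatty acid carrier Fabp3 stood at 755, 732 and 2447 TPM against 149, 142 and 159, so mouse 3 was far above the other two mice while every muscle was above every hypothalamus.

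Most lineage and position genes differed between the tissues in the direction of their list. All 18 tested myogenic factors were higher in gastrocnemius, as were 17 of 18 tested limb position genes, beside 38.2% of all genes. With library totals 16 limb position genes were higher in gastrocnemius and 1 in hypothalamus. That list summed to 349, 324 and 300 TPM in gastrocnemius and to 5.66, 45.95 and 31.3 in hypothalamus, so it was not absent there. The myogenic factor Myf6 stood at 112, 136 and 112 TPM against 0 to 0.0607. Hoxc10, a hindlimb homeobox gene, stood at 89.96, 84.5 and 94.8 TPM and at or under 0.0416 in hypothalamus. Tbx15 stood at 102.1, 90.5 and 78.4 against 0.520 at most. Hoxd8 and Hoxd9, at 27.2 to 38.2 and 14.3 to 19.3 TPM in muscle, had no hypothalamic count. For the hypothalamus, 31 of 32 transcription factors of its development and cell types were higher there, beside 46.6% of all genes, and 1 was not called. The highest were Sox2 at 87.5, 62.0 and 66.5 TPM, Otp, needed for oxytocin and vasopressin neurons, at 72.4, 59.3 and 58.1, Dlx1 at 71.5, 52.8 and 64.9 and Six3 at 73.0, 46.7 and 41.9. Each stood at or under 0.130 in every muscle.

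Peptide precursors took about 1% of the hypothalamic nuclear mRNA. All 28 tested of 31 listed precursors were higher in hypothalamus, beside 46.6% of all genes, with a median log2 difference of -8.58. They summed to 9920, 9949 and 11649 TPM in hypothalamus and to 11.2 to 17.9 in gastrocnemius. Pmch, the precursor of melanin-concentrating hormone of the lateral hypothalamus, stood at 1789, 2754 and 2944 TPM. Avp, vasopressin, stood at 2741, 1973 and 1900, and Oxt, oxytocin, at 1942, 1245 and 2578. Both are made by magnocellular neurons that reach the posterior pituitary. Sst, somatostatin, stood at 911, 868 and 889. In gastrocnemius these 4 were at or under 1.05 in every library. The order of Pmch, Avp and Oxt changed from mouse to mouse, so their mean levels of 2496, 2205 and 1922 TPM do not differ beyond their spread, while Sst lay below all of them in every library. Precursors outside the naming rule were chosen after their values were seen. Among them the arcuate peptides Npy, Cartpt, Pomc and Agrp averaged 338, 254, 86.3 and 27.9 TPM, and Crh, corticotropin-releasing hormone, 7.995. Kiss1, kisspeptin, had no count in any of the 6 libraries.

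**Figure D2:**
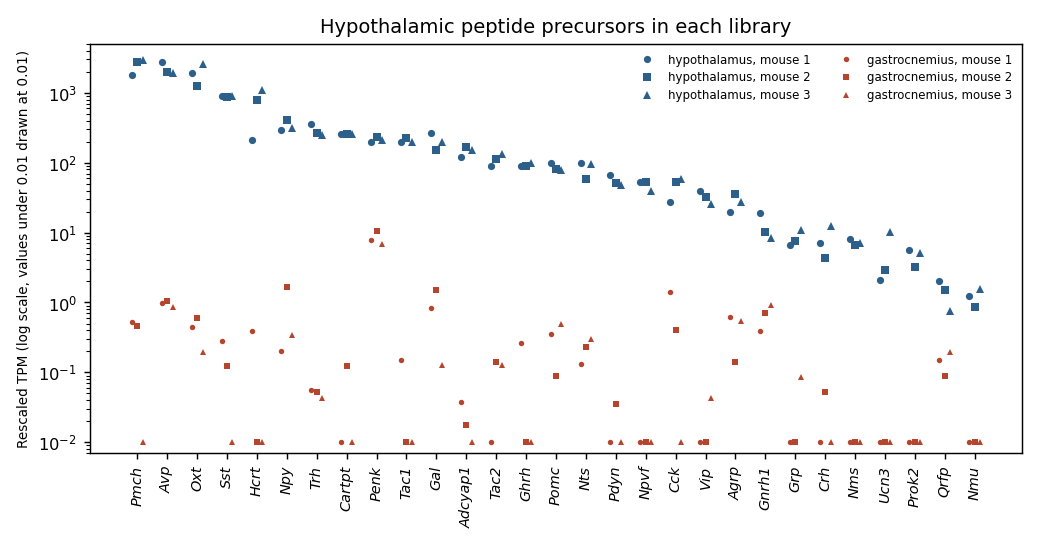
Rescaled TPM (log scale) of the 29 peptide precursor genes that averaged at least 1 TPM in hypothalamus, with 1 symbol per mouse, blue for hypothalamus and red for gastrocnemius; values under 0.01 are drawn at 0.01. Blue symbols lie above the red ones for every gene, and Hcrt is low in mouse 1, at 213 TPM beside 793 and 1098.

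The machinery that makes and stores peptides was likewise higher. All 16 genes of peptide processing and dense core granules were higher in hypothalamus, beside 46.6% of all genes (median log2 difference -9.94). Resp18, a protein of endocrine granules, stood at 1657, 1709 and 1855 TPM against 0 to 0.473. Scg2, secretogranin, stood at 1171, 1304 and 1346 and Pcsk1n, an inhibitor of the prohormone convertase, at 1119, 1168 and 1019, each under 0.32 in muscle. Cpe, carboxypeptidase E, was the member made by both tissues, at 1636, 1922 and 1920 TPM in hypothalamus and 202, 202 and 174 in gastrocnemius.

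All 28 genes of vesicle release and all 28 of the axon and dendrite cytoskeleton were higher in hypothalamus, with median log2 differences of -6.76 and -7.73. Beside the lists of this paragraph, 46.6% of all genes tested were called higher in hypothalamus with TMM and 73.4% with library totals. Snap25, a membrane fusion protein, stood at 1273, 1468 and 1409 TPM against 0.559, 0.263 and 0, and Syp, synaptophysin, at 1280, 1355 and 1285 against 2.33 to 2.81. Of 27 postsynaptic genes, 25 were higher in hypothalamus. Of the 2 exceptions, Homer1, a scaffold, stood at 71.0, 56.6 and 56.1 TPM in gastrocnemius against 20.5, 28.9 and 21.4 in hypothalamus. Gphn, gephyrin, was called higher in gastrocnemius with TMM (0.77) but higher in hypothalamus with library totals (-0.60). Of 22 transmitter genes, 20 were higher in hypothalamus and 1, Slc6a4, in gastrocnemius, where it stood at 0.281 to 0.410 TPM. Gad1, which makes GABA, led the neuronal ones at 444, 371 and 422 TPM, and Slc6a11, a GABA transporter of astrocytes, stood at 480, 500 and 467. The glutamate marker Slc17a6, chosen after its values were seen, averaged 153 TPM beside 128 for Slc32a1.

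Other cell types were present in both tissues and were counted from marker lists. Of all genes tested, 38.2% were called higher in gastrocnemius and 46.6% in hypothalamus with TMM, and 16.3 and 73.4% with library totals. All 16 astrocyte genes were higher in hypothalamus, where they summed to 3768 to 3993 TPM against 43.7 to 49.1, with Gfap at 445, 349 and 282. Of 20 oligodendrocyte genes, 19 were higher in hypothalamus, summing to 6119 to 6825 against 115 to 123, with the myelin gene Mbp at 3011, 3233 and 2775. The 10 Schwann cell genes, some of which oligodendrocytes also express, split 5 to 5. Fibroblast genes were higher in gastrocnemius in 11 of 12, summing to 1227 to 1593 TPM against 119 to 141, and adipocyte genes in 8 of 8, summing to 447 to 564 against 20.7 to 24.3. Of 14 microglia genes, 10 were higher in hypothalamus with TMM and 13 with totals, and P2ry12 stood at 41.3, 41.8 and 34.3 TPM against 0.302 to 0.746. The 14 endothelial genes split 9 to 4, the 4 in hypothalamus being Slco1c1, Slco1a4, Mfsd2a and Slc2a1, transporters of the blood-brain barrier. All 5 red cell genes were called higher in gastrocnemius with TMM and none in either direction with totals, and they summed to 992, 1339 and 1927 TPM in gastrocnemius and 1505, 2280 and 1431 in hypothalamus.

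Markers of the pituitary and choroid plexus were low but present. The anterior pituitary hormone genes Gh and Prl stood at 0.101 to 10.3 and 0 to 1.79 TPM in hypothalamus, and the choroid plexus gene Ttr at 3.30 to 10.1. Of 14 genes of neighbouring brain regions 13 were higher in hypothalamus, and the list summed to 675 to 715 TPM there, led by Calb2, calretinin, at 528, 581 and 514 TPM, which is also made by hypothalamic neurons. The part of such regions in the results was not tested.

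**Figure D3:**
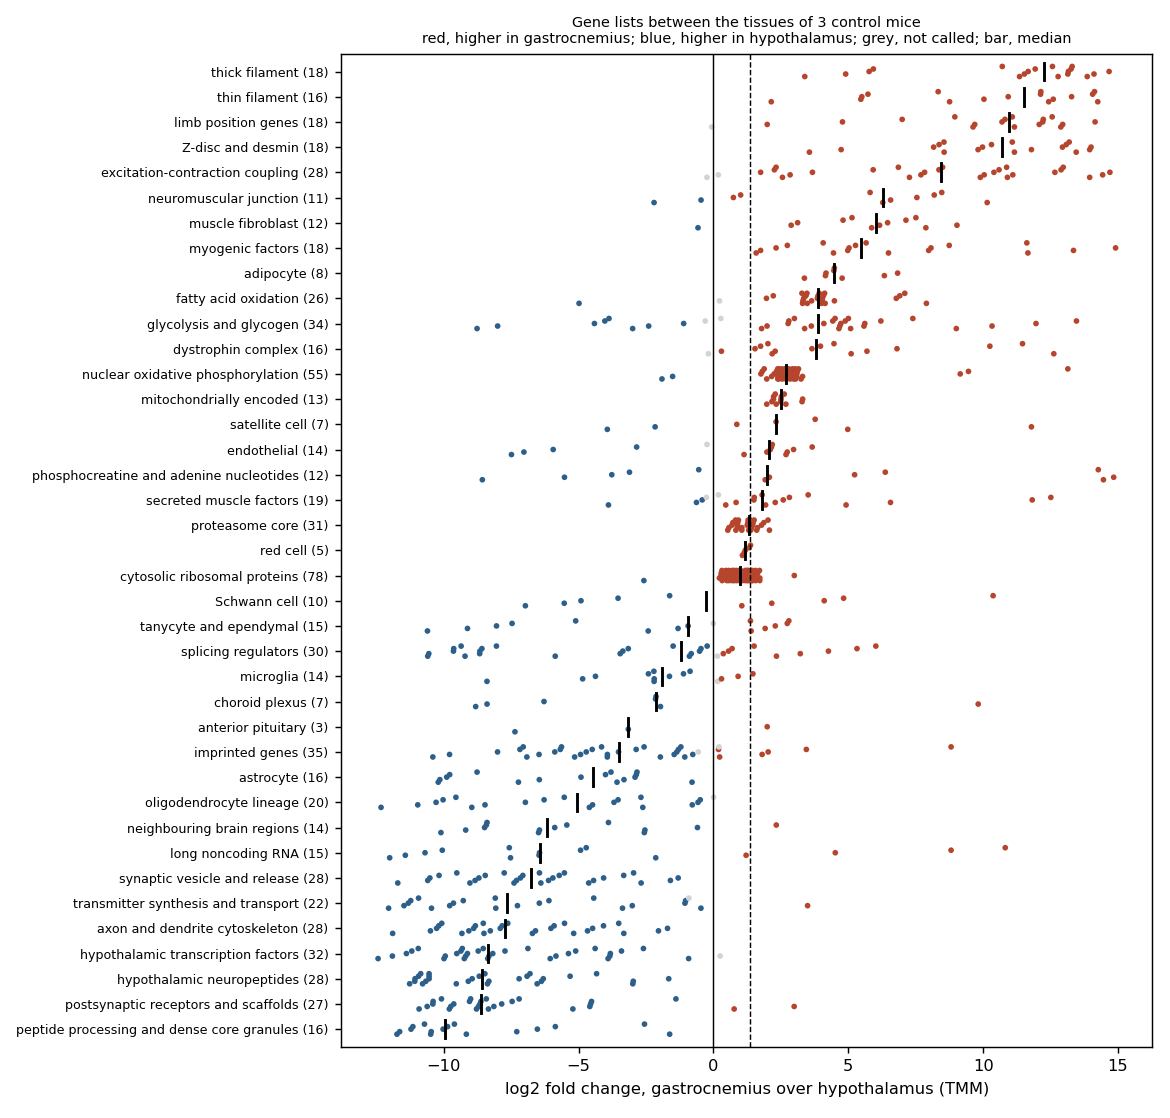
Each point is a tested gene of a list (number tested in brackets), placed by its log2 fold change of gastrocnemius over hypothalamus on the TMM scale; the dashed line marks where no change would lie with library totals. Medians run from 12.25 for thick filament genes to -9.94 for peptide processing, and the medians of the ribosomal protein and proteasome lists, 0.99 and 1.31, lie between the 2 lines.

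Shared housekeeping machinery differed little and changed direction with the scaling. Across all genes tested, 38.2% were called higher in gastrocnemius and 46.6% in hypothalamus with TMM, and 16.3 and 73.4% with library totals. With TMM 77 of 78 cytosolic ribosomal protein genes and 31 of 31 proteasome genes were called higher in gastrocnemius, by medians of 0.99 and 1.31. With library totals 5 of the ribosomal genes were called higher in gastrocnemius and 41 in hypothalamus (median -0.38), and 6 and 12 of the proteasome genes (median -0.06). In rescaled TPM the ribosomal protein genes summed to 46726, 40552 and 44268 in gastrocnemius and to 63804, 64410 and 69882 in hypothalamus. Rpl3 was the exception with TMM. It stood at 36.8, 27.2 and 31.1 TPM in gastrocnemius and at 567, 570 and 588 in hypothalamus, and its muscle paralogue Rpl3l had the opposite pattern.

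Inside shared functions the tissues often used different paralogues. The families were chosen with earlier results of these data known, so the counts describe the families listed. Of 106 gene families with 391 members, the member with the highest mean TPM differed between the tissues in 74 and was the same in 32. In 52 of the 74 the muscle-leading member was called higher in gastrocnemius and the hypothalamus-leading member higher in hypothalamus, and in 50 with library totals. In all 74 the share held by the muscle-leading member did not overlap between the tissues. The 74 were picked by their leading members in the same libraries, so this separation was largely set by that choice. In 9 of the 74 each tissue's member held over 90% of its family. By expected counts in place of TPM 76 families differed, but 14 changed status: 6 differed by TPM only and 8 by counts only.

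In creatine kinase, which buffers ATP, Ckm held 97.8% of the family in gastrocnemius and 0.517% in hypothalamus, and Ckb, the brain form, held 0.0159 and 72.4%. Ckb stood at 1019, 1232 and 1237 TPM in hypothalamus and at 10.0, 6.89 and 7.00 in gastrocnemius. In phosphoglycerate mutase, a glycolytic enzyme, Pgam2 held 99.5% in gastrocnemius and Pgam1 99.35% in hypothalamus. In subunit 8 of cytochrome oxidase, Cox8b held 94.6% in gastrocnemius and 0.0605% in hypothalamus, where Cox8a held 99.9%. The bases upstream of these 3 pairs are shown because each pair makes the same protein function from 2 promoters with opposite tissue use. Each run is the 250 bases before the RefSeq transcription start (GRCm38.p6), 5′ to 3′ on the gene's strand. Capitals mark matches to CAGCTG (an E-box), the MEF2 site (CTA and TAG with 4 bases of any kind between them), the CArG box, TATAAA or TGACGTCA (the cAMP response element), searched on both strands, with overlapping matches each counted.
Ckm, chr7:19410844-19411093, plus strand: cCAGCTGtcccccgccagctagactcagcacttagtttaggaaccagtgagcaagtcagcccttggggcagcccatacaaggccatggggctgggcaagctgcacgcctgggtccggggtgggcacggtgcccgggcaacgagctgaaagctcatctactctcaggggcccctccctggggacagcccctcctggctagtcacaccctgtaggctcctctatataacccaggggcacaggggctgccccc
Ckb, chr12:111672339-111672588, minus strand: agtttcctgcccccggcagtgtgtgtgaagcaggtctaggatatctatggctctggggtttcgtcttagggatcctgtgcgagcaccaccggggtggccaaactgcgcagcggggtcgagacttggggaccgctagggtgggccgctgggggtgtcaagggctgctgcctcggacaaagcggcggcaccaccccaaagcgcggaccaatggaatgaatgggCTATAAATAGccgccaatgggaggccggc
Cox8b, chr7:140900447-140900696, minus strand: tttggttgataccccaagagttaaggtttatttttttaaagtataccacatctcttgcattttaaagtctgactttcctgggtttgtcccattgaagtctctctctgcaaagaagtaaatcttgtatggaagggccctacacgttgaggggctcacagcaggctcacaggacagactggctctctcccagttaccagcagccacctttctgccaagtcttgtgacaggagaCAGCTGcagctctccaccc
Cox8a, chr19:7217617-7217866, minus strand: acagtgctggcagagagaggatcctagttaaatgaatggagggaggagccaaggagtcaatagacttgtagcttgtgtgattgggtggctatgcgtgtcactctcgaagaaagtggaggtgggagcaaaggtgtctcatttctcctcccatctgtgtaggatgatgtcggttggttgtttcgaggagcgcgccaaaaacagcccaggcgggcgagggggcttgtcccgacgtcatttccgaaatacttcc
Pgam2, chr11:5803797-5804046, minus strand: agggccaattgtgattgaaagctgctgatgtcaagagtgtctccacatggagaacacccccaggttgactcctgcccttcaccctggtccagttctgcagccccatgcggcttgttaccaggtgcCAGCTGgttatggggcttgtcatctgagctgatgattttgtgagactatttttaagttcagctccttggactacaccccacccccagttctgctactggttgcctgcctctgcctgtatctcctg
Pgam1, chr19:41911621-41911870, plus strand: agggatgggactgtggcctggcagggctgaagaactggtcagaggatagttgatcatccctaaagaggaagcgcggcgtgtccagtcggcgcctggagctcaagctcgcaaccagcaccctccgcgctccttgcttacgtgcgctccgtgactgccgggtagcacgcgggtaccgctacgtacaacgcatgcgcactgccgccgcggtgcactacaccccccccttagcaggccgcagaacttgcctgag

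The E-box is read by myogenic factors such as MyoD, and the MEF2 site and CArG box by other factors active in muscle. Ckm, Cox8b and Pgam2 each held 1 CAGCTG in this window and their hypothalamic partners none. Ckb held 1 MEF2 site that overlapped a TATAAA, starting 29 and 28 bases before the start, although it is the low member in muscle. CpG dinucleotides numbered 6, 1 and 1 in the windows of Ckm, Cox8b and Pgam2 and 16, 11 and 22 in those of Ckb, Cox8a and Pgam1.

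Over all genes the motifs differed in how often they occurred. The RefSeq table gave a window for 12444 of the 17807 genes tested, using the first start listed for a gene. CAGCTG was in 12.4% of these windows and in 12.8% of all 27025 in the table. It was in 23.3% of 395 genes at least 32-fold higher in gastrocnemius and in 15.4% of 1460 at least 32-fold higher in hypothalamus. The MEF2 site was in 2.80% of tested genes, 8.86% of the gastrocnemius group and 3.49% of the hypothalamus group. The CArG box was in 1.15, 3.80 and 1.03%, and TATAAA in 6.89, 17.2 and 8.56%. TGACGTCA was in 2.60, 1.52 and 2.74%. The median number of CpG was 15 among tested genes, 5 in the gastrocnemius group and 10 in the hypothalamus group. In the 52 families with crossed calls, CAGCTG was in 14 of 43 windows of muscle-leading members and 4 of 38 of hypothalamus-leading members. The MEF2 site ran the other way, in 1 and 3 of these windows, the CArG box was in 2 and 0, TATAAA in 6 and 3, and TGACGTCA in 2 and 0. Of 32 such families with both windows, the muscle-leading member had fewer CpG in 19, more in 12 and as many in 1. A match is a run of letters, and binding was not measured.

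Other metabolic families switched in the same way. Among glucose handlers, Eno3 held 97.4% of enolase in gastrocnemius and Eno2 59.2% in hypothalamus, Hk2 held 93.1% of hexokinase and Hk1 90.55%, and Pygm 99.9% of glycogen phosphorylase and Pygb 83.2%. The insulin-responsive transporter Slc2a4 held 98.1% of its family in gastrocnemius and 1.48% in hypothalamus, where Slc2a1 led with 52.1%. Ldha, which favours lactate production, held 89.4% of lactate dehydrogenase in gastrocnemius and 29.1% in hypothalamus. Ldhb led in hypothalamus with 70.9%, but its own difference was not called with TMM (log2 difference 0.28, SE 0.25). Cox6a2 held 96.9% of its family in gastrocnemius and Cox6a1 98.8% in hypothalamus. Cox7a1 held 83.7% in gastrocnemius against Cox7a2 with 96.9% in hypothalamus, although Cox7a2 itself was higher in gastrocnemius (1.88). Cpt1b, which feeds fatty acids into muscle mitochondria, held 96.4%, and the brain form Cpt1c 81.7%.

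Ryr1, the calcium release channel of muscle, held 99.96% of ryanodine receptor TPM in gastrocnemius, and Ryr2 60.7% in hypothalamus. Atp2a1 held 99.6% of the SERCA pumps in gastrocnemius and Atp2a2 95.9% in hypothalamus, although the difference of Atp2a2 itself was not called with TMM (-0.24) and was called with totals (-1.61). Scn4a held 99.5% of the sodium channel alpha genes in gastrocnemius, and Scn2a was the highest of several in hypothalamus with 34.8%. In membrane fusion, Snap23 held 63.6% in gastrocnemius and Snap25 97.9% in hypothalamus. Sypl2, a triad protein of muscle related to synaptophysin, stood at 322, 309.5 and 290 TPM against 0.998 to 1.40, and Syp held 94.5% of that family in hypothalamus.

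The switch reached translation and RNA processing. Rpl3l, the striated muscle form of ribosomal protein L3, held 94.4% of its pair in gastrocnemius and 0.0692% in hypothalamus. As a share of rescaled TPM the pair's sum was close in both tissues, at 561 ± 34.6 and 576 ± 11.2 TPM (SD, n = 3). On that scale the median log2 difference of all genes was -1.47, beside -0.24 with TMM. Close shares are therefore not close levels on the TMM scale, on which the sum was not compared. Of the elongation factors, Eef1a2 held 80.3% in gastrocnemius and Eef1a1 80.6% in hypothalamus, yet Eef1a2 was abundant in both, at 1426, 1272 and 1301 against 858, 911 and 900 TPM. Rbfox1, a splicing regulator, held 90.6% of its family in gastrocnemius and 29.1% in hypothalamus, where Rbfox3 led with 42.8%. Of 30 splicing regulators, 9 were higher in gastrocnemius and 20 in hypothalamus with TMM, beside 38.2 and 46.6% of all genes, and 5 and 24 with library totals. On the muscle side Rbm20 stood at 18.2, 18.7 and 24.3 TPM and Rbm38 at 236, 236 and 312. On the brain side Celf4 and Elavl3 stood at 543 to 572 and 189 to 193, each under 0.51 in muscle.

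Some families kept the same leading member. Aldoa held 100% of aldolase in gastrocnemius and 67.7% in hypothalamus, where Aldoc took most of the rest. Pfkm led phosphofructokinase with 99.5 and 52.7%, Gys1 glycogen synthase with 99.99 and 99.74%, and Slc25a4 the adenine nucleotide translocators with 98.2 and 74.1%. Cox4i1 held 99.6 and 99.7% and Cox6b1 99.9 and 98.5% of their pairs, unlike the cytochrome oxidase subunits that switched. Pdk2, which restrains pyruvate dehydrogenase, led its family with 66.1 and 74.4%. Leadership in this group was therefore shared even where the level was not: Gys1 was higher in gastrocnemius by 5.58 and Aldoa by 4.89 on the log2 scale.

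**Figure D4:**
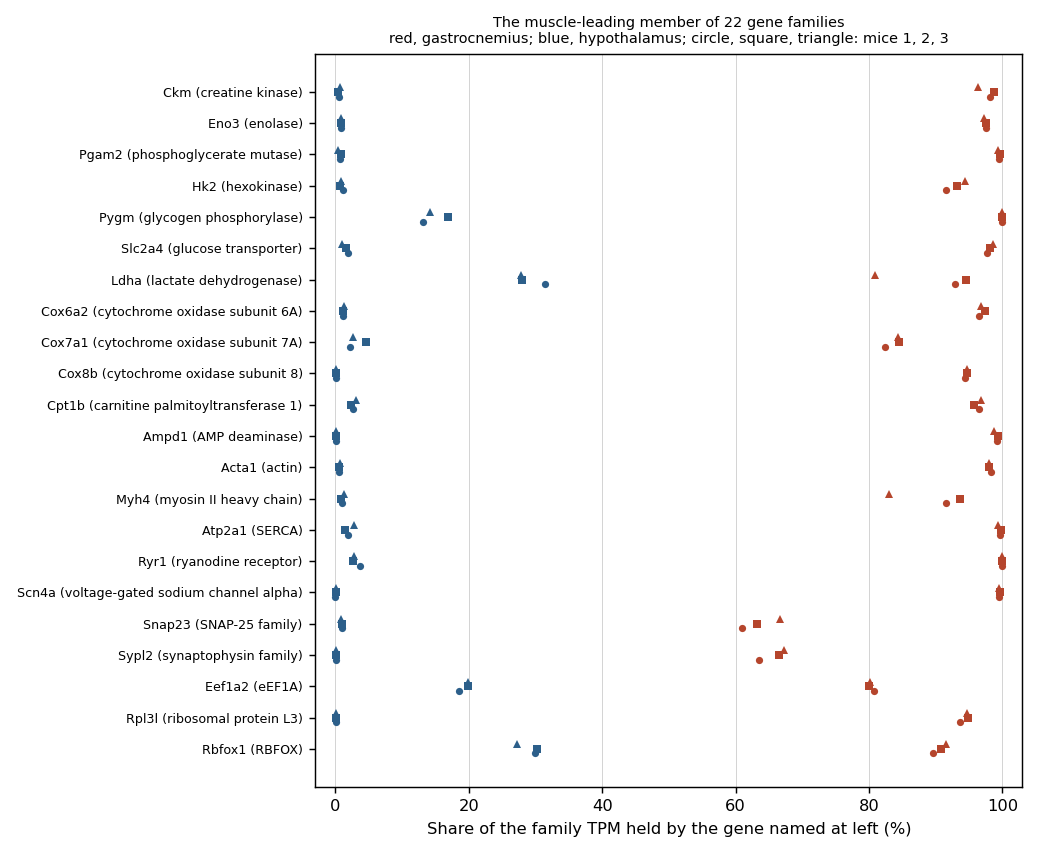
Share of the family TPM (%) held by the muscle-leading member of 22 families, with red for gastrocnemius and blue for hypothalamus and 1 symbol per mouse. All 22 come from the families picked because their leading member differed between the tissues. The 2 tissues do not overlap in any of the 22, and Ldha, Eef1a2 and Rbfox1 average 29.1, 19.4 and 29.1% in hypothalamus.

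The listed imprinted genes and long noncoding RNAs were mostly higher in hypothalamus. Beside them, 46.6% of all genes were called higher there and 38.2% in gastrocnemius with TMM, and 73.4 and 16.3% with library totals. Of 35 tested imprinted genes, which are expressed from 1 parental allele, 27 were higher in hypothalamus and 6 in gastrocnemius, and 31 and 4 with totals. They summed to 17192 to 17880 TPM in hypothalamus and 2268 to 2575 in gastrocnemius. Meg3 stood at 2876, 2973 and 3000 TPM against 50.2, 57.0 and 50.2, Nnat at 2720, 2278 and 2394 against 34.3, 10.4 and 5.47, and Nap1l5 at 2239, 2150 and 2173 against 0.653 to 0.929. H19 was the clearest in the other direction, at 421, 473 and 816 TPM in gastrocnemius against 4.10, 3.80 and 3.35. Of 15 tested long noncoding RNAs, 11 were higher in hypothalamus, with Snhg11 at 1766, 1649 and 1702 TPM against 0.429 at most. With library totals 11 were again higher there, which is close to the share of all genes. Over all 1468 long noncoding genes tested, 796 were higher in hypothalamus and 373 in gastrocnemius with TMM. The authors' counts do not say whether strand was used, so reads of genes that overlap on opposite strands may be mixed.

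Genes higher in hypothalamus were longer on the chromosome. The median span of protein-coding genes was 24.7 kb over all tested, 20.97 kb for those higher in gastrocnemius and 29.8 kb for those higher in hypothalamus. Genes of at least 100 kb made up 15.3, 11.05 and 20.3% of these groups, and 25.3% of genes at least 4-fold higher in hypothalamus. Long noncoding genes were 8.26% of all tested, 5.50% of the gastrocnemius group, 9.60% of the hypothalamus group and 11.1% of genes not called. They were 8.44% of genes at least 4-fold higher in gastrocnemius and 12.2% of those at least 4-fold higher in hypothalamus.

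The mice differed among themselves more in muscle than in hypothalamus. The median coefficient of variation was 9.47% over 2414 genes with at least 20 deposited TPM in gastrocnemius and 4.96% over 4934 in hypothalamus. In gastrocnemius 70 of these genes had a ratio of highest to lowest mouse of at least 2, and in hypothalamus 17. Among the 5 with the largest ratio in gastrocnemius were Hspa1b, Hspa1a, Gm15543 and Ankrd2, and the 5 in hypothalamus were Hspa1a, Cpne9, Hcrt, Egr1 and Gm10240. The inducible heat shock gene Hspa1a stood at 4.33, 105 and 26.4 TPM in gastrocnemius and 15.04, 101.8 and 18.5 in hypothalamus, so it was highest in mouse 2 in both tissues. Hspa1b, its near-identical neighbour, stood at 3.53, 122 and 17.6 in gastrocnemius. Hcrt, orexin of the lateral hypothalamus, stood at 213, 793 and 1098 TPM and was lowest in mouse 1, where Pmch of the same area was also lowest. Egr1, an activity-induced factor, stood at 90.2, 117 and 30.7 TPM in hypothalamus.

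The oxidative lists had their highest sums in the muscle of mouse 3. The nuclear oxidative phosphorylation genes summed to 51001, 46395 and 62433 TPM in mice 1, 2 and 3, and the fatty acid oxidation genes to 3988, 3820 and 7331. Ankrd2, a stretch-responsive gene of slow fibres, stood at 182, 73.6 and 316 TPM in mice 1, 2 and 3. Mb, myoglobin, stood at 3043, 2738 and 7007, Ckmt2 at 854, 761 and 1704 and Ldhb at 236, 158 and 582. Slow-fibre genes were chosen after their values were seen and are given as values only: Myh7 stood at 163, 118 and 240, Tnnc1 at 181, 122 and 310 and Myl2 at 750, 398 and 1160. The share of counts in mitochondrial genes and their copies, 23.2, 21.1 and 31.3%, was also highest in mouse 3, and the part of fibre composition in these differences was not tested. With 3 mice of 1 group there is no comparison to test, and these values describe the spread behind every muscle mean given here.

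**Figure D5:**
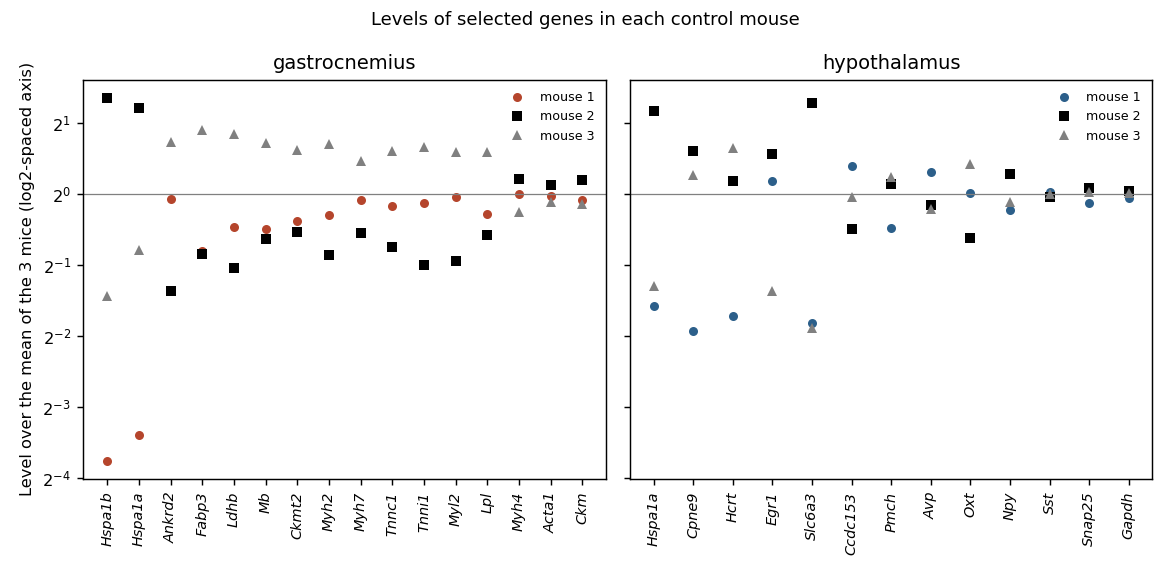
Level in each mouse divided by the mean of the 3 mice (log2-spaced axis) for genes of gastrocnemius and hypothalamus, most of them selected after their values were seen. In gastrocnemius mouse 3 is highest from Ankrd2 to Lpl and mouse 2 for Hspa1a and Hspa1b, and in hypothalamus Sst, Snap25 and Gapdh stay close to 1.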

How the data were processed

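RNA-seq libraries of gastrocnemius and hypothalamus from 3 control mice were analysed. Per the submitters' processing notes, which list the tools without their roles, RSEM 1.3.3, the aligner STAR 2.7.9a and the trimming tool Trim Galore 0.6.6 were named, with the GRCm38 build; the annotation release and the strand setting are not given in the sources used here. The authors deposited expected counts and TPM for 55416 gene identifiers, of which 52083 were matched to a gene name and held 99.6% of the counts. Library totals were 27505574 to 34439915.

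Expected counts were rounded and tested with edgeR 4.0.16 in R 4.3.3, by the quasi-likelihood test with TMM scaling, filterByExpr by tissue and the mouse as block, with Benjamini-Hochberg adjustment over 17807 genes and calls at 0.05. The labels give the muscle and hypothalamus of 1 mouse the same number, so the numbers pair the libraries by animal. The deviations of same-numbered libraries from their tissue means correlated by only 0.0131, 0.089 and 0.00652. Replicates are separate animals. No 2 libraries of a tissue agreed within sampling noise: the chi-square per gene ran from 6.31 to 110.

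Rescaled TPM was the deposited TPM over nuclear genes with a mean effective length of at least 100 nucleotides, leaving out 37 mitochondrial genes, 7 nuclear copies of mitochondrial DNA and 9705 short genes; it was chosen after the data were seen. Family members were ranked by deposited TPM, which also gave the shares of a family, and family sums are in rescaled TPM. Counts were simulated with the same design, with 1 mean for both tissues and 200 genes drawn to change, and 16920 genes were tested. Of genes changed 1.5-fold, 2-fold and 4-fold, 48.1, 68.9 and 97.1% were recovered, and 10.6% of 160 calls were false. In the real data 84.8% of genes were called, so these rates need not hold there.

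Named genes were the 10 most abundant of each tissue, the 12 most extreme in each direction at 20 deposited TPM or more, up to 4 leading and 2 opposed members of each list, the leading member of each family, and the 5 genes of each tissue that varied most between mice. The gene lists, families and members were chosen with earlier results of these data known. Alternatives were no block, other scalings, no mitochondrial genes, other filters, DESeq2 1.42.0, limma 3.58.1 on log2(TPM + 0.5), and leaving out each mouse. Results on some genes that this rule named are not reported here.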

Additional observations from a re-analysis of the deposited data

How the results depend on the processing

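The mouse block decided little: without it 6894 genes were called higher in gastrocnemius and 8422 in hypothalamus, beside 6799 and 8304 with it. Of 150 named genes followed through the alternatives, only Hspa1a, Hspa1b and Hspa8 lost their call. Leaving out each mouse in turn gave 6341 to 6710 and 7757 to 8250 calls. DESeq2 called 6424 and 7873. Scaling by library totals alone moved the counts to 2898 in gastrocnemius and 13071 in hypothalamus. Fits that changed the test, the unit and the scaling together gave, with limma on log2(TPM + 0.5) 2622 and 13401, and with limma on rescaled TPM 2505 and 13686. The share of calls that were higher in gastrocnemius was 45.0% with TMM, 44.8% with median-of-ratios size factors, 18.2% with totals, 16.4% with TPM and 15.5% with rescaled TPM. Total RNA per tissue was not measured.

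On deposited TPM 15 genes held 50% of the total in gastrocnemius and 18.7 in hypothalamus on average. The means became 31.7 and 932 with expected counts, 53 and 168 without mitochondrially encoded genes, 52 and 862 for rescaled TPM, and 107 and 1299 for the counts of the same nuclear genes. Leaving out each mouse gave 14.5 to 16 and 17.5 to 20. The share of the 10 highest genes was 41.5% in gastrocnemius and 45.2% in hypothalamus. It became 31.0 and 11.6% with expected counts, 32.5 and 36.6% without mitochondrially encoded genes, 32.6 and 3.91% for rescaled TPM, and 27.4 and 3.42% for the counts of the same genes. Leaving out each mouse gave 40.0 to 42.3% and 44.7 to 45.7%. Families whose leading member differed numbered 74, then 76 by expected counts and 73 to 77 without 1 mouse.

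Of 150 named genes followed through the alternatives, 10 changed direction in some alternative, given as log2 differences. Of those 10, 7 were called with TMM and the block. The 150 leave out some leading members of families, and more of those changed direction with library totals. For example, Dnm2 went from 0.85 with TMM to -0.52 with totals, Celf2 from 0.56 to -0.81 and Camk2a from 1.31 to -0.057. With library totals, limma on TPM and limma on rescaled TPM, Gphn gave -0.60, -1.03 and -1.13, Hspa8 -0.96, -1.12 and -1.21, Rps24 -0.67, -0.77 and -0.86, Rps27 -0.29, -0.37 and -0.45, Hspa1a -0.047, -0.27 and -0.38, and Gm10240 -0.39, -0.49 and -0.58. With the 2 limma fits Hspa1b gave -0.14 and -0.25. Of the 3 that were not called, Gnas (0.21) gave -1.16, -1.48 and -1.56 in those 3 fits, Ldhb (0.28) -1.09, -1.12 and -1.21. Without 1 mouse Ldhb ran from -0.16 to 0.62, lowest without replicate 3, and Ubb (-0.010) from -0.10 to 0.078, highest without replicate 3. The cause was not tested beyond the scaling itself. In simulated counts with 3 mice and 200 genes drawn to change, 48.1% of 1.5-fold and 68.9% of 2-fold differences were recovered. Recovery in the real data was not measured.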
